A study of Mus musculus with 12 samples.

Results

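Complex I of the respiratory chain is built from subunits that are encoded partly in the nucleus and partly on mitochondrial DNA. The genes described here are 36 nuclear genes listed by symbol for this complex, and all 36 were found among the 43629 Ensembl genes that were counted. The list holds most but not every nuclear subunit. All 36 also passed the filter on low counts, which kept 15059 genes. They were measured by RNA sequencing in 12 mouse libraries of the C57BL/6 strain, 3 in each of 4 groups. Libraries labelled AGHMT came from mouse embryonic fibroblasts treated for 3 weeks with Akt, Gata4, Hand2, Mef2c and Tbx5, and the series is named for Akt1. GHMT libraries came from the same kind of fibroblast treated for as long with Gata4, Hand2, Mef2c and Tbx5 alone. CM libraries came from isolated adult ventricular cardiomyocytes. E libraries came from embryonic fibroblasts that had carried an empty vector for 3 weeks. The AGHMT and GHMT cells were sorted on a green fluorescent reporter under the promoter of the myosin gene Myh6, and the labels of CM and E name no sort. In every comparison of a sorted group with CM or E, the sort and the treatment cannot be told apart. Whether replicates were separate cultures or animals is not given in the labels, so a p-value measures only the spread between these libraries, which may be technical.

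Complex I takes electrons from NADH, passes them along a chain of iron-sulfur clusters to ubiquinone, and pumps protons out of the mitochondrial matrix. Its matrix arm has an N module, which oxidises NADH, and a Q module, where ubiquinone is reduced, and its membrane arm has a proximal and a distal part that hold the proton channels. The adult heart is packed with mitochondria and draws nearly all its ATP from respiration, while cultured fibroblasts rely more on glycolysis. By the usual assignment, 10 of the genes belong to the N module, 5 to the Q module, 9 to the proximal arm and 11 to the distal arm. The remaining gene, Ndufa4, carries the name of the complex but its protein is now counted with complex IV.

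The promoters of 33 of the 36 genes were matched by symbol in RefSeq (GRCm38.p6), and 3 are shown because their genes are among the 3 with the largest fold change of a comparison given further on. Each runs from 250 bases before to 30 bases after the annotated start. The promoter of Ndufs3, a core Q module subunit (chr2:90904692-90904971, minus strand), and that of Ndufa11, a proximal arm subunit (chr17:56717512-56717791, plus strand), each hold 1 of the searched motifs, in capitals. That of Ndufc2, a small membrane subunit at the base of the proximal arm (chr7:97399753-97400032, plus strand), holds no searched motif.

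Ndufs3: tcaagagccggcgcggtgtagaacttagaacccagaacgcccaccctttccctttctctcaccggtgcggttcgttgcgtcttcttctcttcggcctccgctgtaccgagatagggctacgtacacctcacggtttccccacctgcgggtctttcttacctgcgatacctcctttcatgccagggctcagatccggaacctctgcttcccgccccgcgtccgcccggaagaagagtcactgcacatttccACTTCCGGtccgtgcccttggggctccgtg
Ndufa11: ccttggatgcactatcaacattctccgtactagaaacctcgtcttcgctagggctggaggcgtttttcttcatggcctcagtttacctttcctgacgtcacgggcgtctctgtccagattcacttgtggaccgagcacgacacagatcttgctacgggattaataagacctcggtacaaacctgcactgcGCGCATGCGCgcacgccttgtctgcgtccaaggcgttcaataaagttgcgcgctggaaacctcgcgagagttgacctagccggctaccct
Ndufc2: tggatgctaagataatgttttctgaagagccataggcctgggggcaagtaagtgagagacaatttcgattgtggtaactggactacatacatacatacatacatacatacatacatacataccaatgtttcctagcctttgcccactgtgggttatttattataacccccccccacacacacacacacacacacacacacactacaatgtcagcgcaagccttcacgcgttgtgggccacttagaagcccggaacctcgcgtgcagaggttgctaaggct

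The capitals in Ndufs3 are the reverse complement of CCGGAAGT, the core bound by the factor GABPA. Those in Ndufa11 are 2 overlapping matches, 1 on each strand, of GCGCATGCG, a core bound by the factor NRF1. Over the full RefSeq windows, which run to 50 bases after the start, and on both strands, CCGGAAGT was found in 1 of 33 promoters of the group, against 4.31% of 27025 genes. GCGCATGCG was found in 2 of 33 (Ndufa8 and Ndufa11), against 1.95% of all genes. TCAAGGTCA, the element of the estrogen-related receptors, was in 0 of 33, against 0.466% of all genes. AAGATGGCG, the core of a YY1 site, was in 5 of 33 (15.2%), against 1.64% of all genes. The 5 matches are shown with their flanks because they share a place in the gene.

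Ndufa9 (chr6:126849097-126849125, minus strand): attgtgggagAAGATGGCGgccgccgtcc
Ndufc1 (chr3:51408915-51408943, minus strand): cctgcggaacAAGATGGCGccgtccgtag
Ndufs4 (chr13:114388045-114388069, minus strand): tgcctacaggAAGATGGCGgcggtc
Ndufs6 (chr13:73328433-73328459, minus strand): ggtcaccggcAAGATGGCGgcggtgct
Ndufs7 (chr10:80249463-80249491, plus strand): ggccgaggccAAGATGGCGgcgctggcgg

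In all 5 the capitals mark the match, which lies on the strand of the gene, 23 to 36 bases after the start, and takes in an annotated start codon of the gene. A match is a description of letters and no measurement of binding, and none was measured here.

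The libraries differed in depth and makeup. Gene reads numbered 14386407 to 18493989 in AGHMT, 1872558 to 2200815 in GHMT, 5120230 to 15952646 in CM and 15971154 to 33552138 in E. The 36 genes together held 56919 reads in AGHMT, 1796 in GHMT, 242076 in CM and 89942 in E. In GHMT the median gene had 15.5 reads over the 3 libraries, 15 of the 36 had fewer than 10, and Ndufs5 and Ndufb7 had none. A count of 3 reads, the limit that a count of 0 allows, stood at 1.56 to 3.93 CPM (reads normalised to library size) in a GHMT library and 0.164 to 0.231 CPM in an AGHMT library. Such floors and the count intervals below cover counting error only. GHMT 1 stood apart, with 72.2% of its reads from mitochondrial genes and 43.1% from mt-Nd6 alone. The mitochondrial share was 27.8% in GHMT 2, 47.0% in GHMT 3 and 36.6% to 42.7% in AGHMT. It was 40.0% to 59.9% in CM and only 3.65% to 7.36% in E. CM 3 and E 1 stood apart from the other libraries of their groups in GC-rich genes, as given below. Summed cardiomyocyte markers were 4125 to 4580 CPM in AGHMT, 730 to 1269 in GHMT, 30429 to 61113 in CM and 8.79 to 18.6 in E. Summed fibroblast markers were 9043 to 9944 CPM in AGHMT, 5006 to 7416 in GHMT, 1064 to 1268 in CM and 13398 to 21442 in E. Summed endothelial markers were 61.6 to 71.5 CPM in AGHMT, 1.31 to 11.5 in GHMT, 456 to 590 in CM and 8.52 to 11.1 in E. Summed macrophage markers were at 31.4 to 45.9 CPM in AGHMT, 1.31 to 6.19 in GHMT, 77.3 to 117 in CM and 11.8 to 37.4 in E. Summed mural markers were 669 to 765 CPM in AGHMT, 291 to 478 in GHMT, 958 to 1601 in CM and 459 to 3397 in E. Summed mast cell markers were 310 to 340 CPM in AGHMT, 65.5 to 162 in GHMT, 7.21 to 10.3 in CM and 0.217 to 0.489 in E. Of the 5 mast cell markers, Mcpt4 had 15833 reads in AGHMT and 482 in GHMT, Kit had 66 and 0 (209 in CM), and Cma1, Cpa3 and Tpsb2 had 4, 9 and 0 in AGHMT and none in GHMT. The part of other cell types in the results was not tested, and in bulk RNA fewer cells of a type cannot be told apart from less RNA per cell. Akt1 did not bear out the AGHMT label, at 12.98 ± 6.22 CPM in AGHMT, 9.53 ± 7.12 in GHMT, 48.7 ± 48.2 in CM and 62.9 ± 41.3 in E (SD, n = 3 each). By the test described below, 0 of 5 listed reprogramming factors were higher or lower in AGHMT than in GHMT. Against E, 3 of them were higher and 1 lower in AGHMT, and likewise in GHMT. Whether the counting would see an added Akt1 is not given. Every direction drawn from the AGHMT group therefore rests on its label.

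Summed over the 36 genes, the level was 1022 to 1237 CPM in AGHMT, 315 to 594 in GHMT, 7514 to 9920 in CM and 621 to 838 in E. The means were 1138 ± 108, 423 ± 150, 8528 ± 1247 and 706 ± 116 CPM in that order (SD, n = 3 each). No library of one group overlapped a library of another in this sum. Between AGHMT and E the sum leaned on abundant genes, as Ndufs1 and Ndufv2 averaged 275 and 166 CPM in AGHMT and 93.4 and 46.7 CPM in E. The median level of the 36 genes was 9.19, 13.0 and 12.1 CPM per kilobase of transcript in AGHMT. In E it was 17.8, 13.1 and 8.62, so that these 2 groups overlapped in the median. By module, the N module summed to 550 ± 19.6 CPM in AGHMT, 180 ± 73.3 in GHMT, 2799 ± 155 in CM and 247 ± 18.9 in E. The Q module summed to 106 ± 22 CPM in AGHMT, 19.1 ± 9.63 in GHMT, 1105 ± 268 in CM and 80.8 ± 23.0 in E. For the proximal arm the sums were 152 ± 31.8, 66.6 ± 18.1, 1614 ± 602 and 157 ± 57.9 CPM in AGHMT, GHMT, CM and E. For the distal arm they were 228 ± 33.1, 102 ± 38.7, 2250 ± 651 and 159 ± 20.4 CPM. CM was highest in all 4 modules. AGHMT lay above E without overlap in the N module and the distal arm, and overlapped E in the Q module and the proximal arm. Of the 550 CPM that the N module averaged in AGHMT, Ndufs1 gave 275 and Ndufv2 166. Of its 10 genes 3 were higher and 2 lower in AGHMT than in E, with a median log2 fold change of -0.64. The median level of the module was 6.43, 12.1 and 10.2 CPM per kb (per kilobase of transcript) in AGHMT, against 18.6, 18.3 and 14.4 CPM per kb in E, so that the median ran against the sum. In the distal arm 1 of 11 genes passed, with a median log2 fold change of 0.44.

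**Figure D1:**
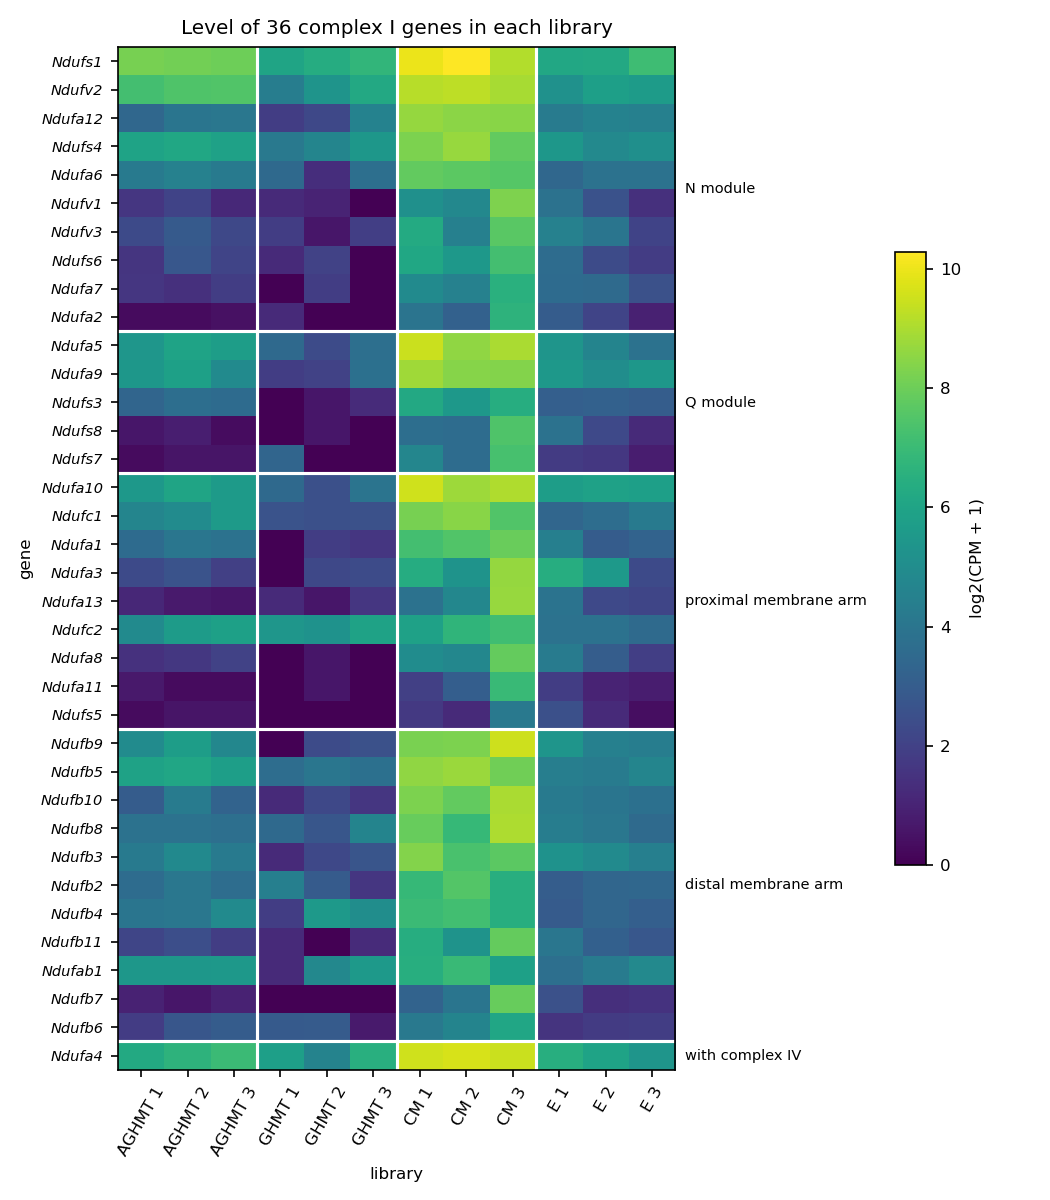
Level of each of the 36 genes (rows, grouped by module and ordered by the CM mean) in each of the 12 libraries (columns), as log2 of CPM plus 1, where dark cells are low and yellow cells high. The 3 CM columns are brightest in nearly every row, CM 3 is brighter than CM 1 and CM 2 in rows such as Ndufa11, Ndufa13 and Ndufb7, and many GHMT cells are at 0.

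Per kilobase of transcript, a scale that allows for annotated length but not for GC content, Ndufa4 (chr6:11900292-11907497, mm10) had the highest level in all 4 groups. It stood at 166 CPM per kb in AGHMT, 91.0 in GHMT, 1245 in CM and 104 in E. After Ndufa4 came Ndufs1 in AGHMT (103 CPM per kb), Ndufc2 in GHMT (67.5), the distal arm gene Ndufb9 in CM (630, through CM 3) and the proximal arm gene Ndufa3 in E (86.2). In CM 1 and CM 2 the Q module gene Ndufa5 (808 and 437 CPM per kb) lay above Ndufb9 (426 and 429), and in CM 3 below it (576 against 1034). At the low end was Ndufs7, which encodes the core subunit that hands electrons to ubiquinone, with 0.413 CPM per kb in AGHMT and 1.86 in E. In GHMT the lowest were Ndufs5 and Ndufb7, without a read, and in CM the lowest was Ndufs5 (10.1 CPM per kb). Across the 36 genes, Spearman correlations of these levels were 0.83 between AGHMT and GHMT, 0.79 between AGHMT and E, 0.74 between AGHMT and CM, 0.61 between GHMT and E, 0.58 between GHMT and CM and 0.88 between CM and E. Transcript length and base composition are common to all groups in these correlations, and they carry no test.

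Adult cardiomyocytes held far more complex I transcripts than empty-vector fibroblasts. The quasi-likelihood test of edgeR, with p-values adjusted by Benjamini-Hochberg over all 15059 genes (threshold 0.05, used throughout), was the test in every comparison. By it 34 of 36 genes were higher in CM than in E and 0 were lower. Of all genes tested, 19.5% were higher and 22.5% lower. The median log2 fold change was 3.69 for the 36 genes and -0.25 for all genes. In 31 of the 36 every CM library lay above every E library, as did 24.6% of all genes. The calls covered 10 of 10 N module genes, 5 of 5 of the Q module, 7 of 9 of the proximal arm, 11 of 11 of the distal arm, and Ndufa4. Ndufa3 (log2 fold change 1.98, adjusted p = 0.085) and Ndufs5 (1.60, adjusted p = 0.22) did not pass.

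Ndufs1 (chr1:63143596-63176833, mm10), the largest N module subunit and carrier of several iron-sulfur clusters, had 1023, 1250 and 556 CPM in CM 1 to 3, against 71.7, 72.4 and 136 CPM in E 1 to 3. The groups did not overlap, and the log2 fold change was 3.33 (standard error 0.38, adjusted p = 6.12e-06). Ndufv2 (chr17:66078638-66101559, mm10), an iron-sulfur subunit beside the NADH site, had 576, 611 and 494 CPM in CM against 35.7, 55.5 and 49.0 CPM in E, which gave a log2 fold change of 3.58 (standard error 0.39, adjusted p = 4.13e-06). Ndufa4 had 749, 821 and 710 CPM in CM and 87.1, 61.8 and 40.8 CPM in E (log2 fold change 3.58, standard error 0.44, adjusted p = 1.39e-05). For Ndufs3 (chr2:90894634-90904827, mm10) the CM libraries held 72.9, 44.0 and 83.1 CPM and the E libraries 7.61, 8.08 and 7.15 CPM (3.11, standard error 0.44, adjusted p = 4.15e-05). In these 4 genes every CM library lay above every E library.

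In the genes with the largest folds in CM against E, CM 3 stood far above CM 1 and CM 2. Ndufs7 (chr10:80249121-80256794, mm10) had 25.3, 11.6 and 158 CPM in CM 1 to 3, against 2.49, 2.20 and 0.795 CPM in E. Its log2 fold change was 5.06 (standard error 1.11, adjusted p = 0.00159), and 3.26 without CM 3 (adjusted p = 0.0109). Ndufb7, a cysteine-rich distal arm subunit on the side of the intermembrane space, had 8.77, 15.2 and 237 CPM in CM against 4.80, 1.59 and 1.80 CPM in E (4.92, standard error 1.11, adjusted p = 0.00273). It was at 2.09 without CM 3 (adjusted p = 0.0185). Ndufa11 had 2.82, 7.45 and 125 CPM in CM against 2.61, 1.05 and 0.764 CPM in E, which gave a log2 fold change of 4.81 (standard error 1.15, adjusted p = 0.00301). Without CM 3 it did not pass (1.72, adjusted p = 0.0518). Among core subunits, Ndufv1, which binds NADH and its flavin, had 34.7, 27.3 and 318 CPM in CM against 13.6, 4.97 and 1.71 CPM in E (4.20, standard error 0.95, adjusted p = 0.00218; 2.18 and 0.0272 without CM 3). Ndufs8, an iron-sulfur subunit of the Q module, had 12.2, 11.4 and 173 CPM in CM against 13.6, 3.79 and 1.35 CPM in E, and the groups overlapped. Its log2 fold change was 3.36 (standard error 1.02, adjusted p = 0.015). It was 0.90 without CM 3 (adjusted p = 0.368), and the call also ended without E 2 (3.06, 0.065) or E 3 (2.85, 0.051). Leaving out E 1 moved Ndufs8 to 4.62, Ndufv1 to 5.20, Ndufb7 to 5.54 and Ndufa11 to 5.42, and leaving out CM 1 moved Ndufa11 to 5.40. Without CM 3, 28 of the 36 genes were higher in CM than in E, as were 18.6% of all genes. Ndufa2, Ndufa7, Ndufa8, Ndufa11, Ndufa13 and Ndufs8 no longer passed.

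**Figure D2:**
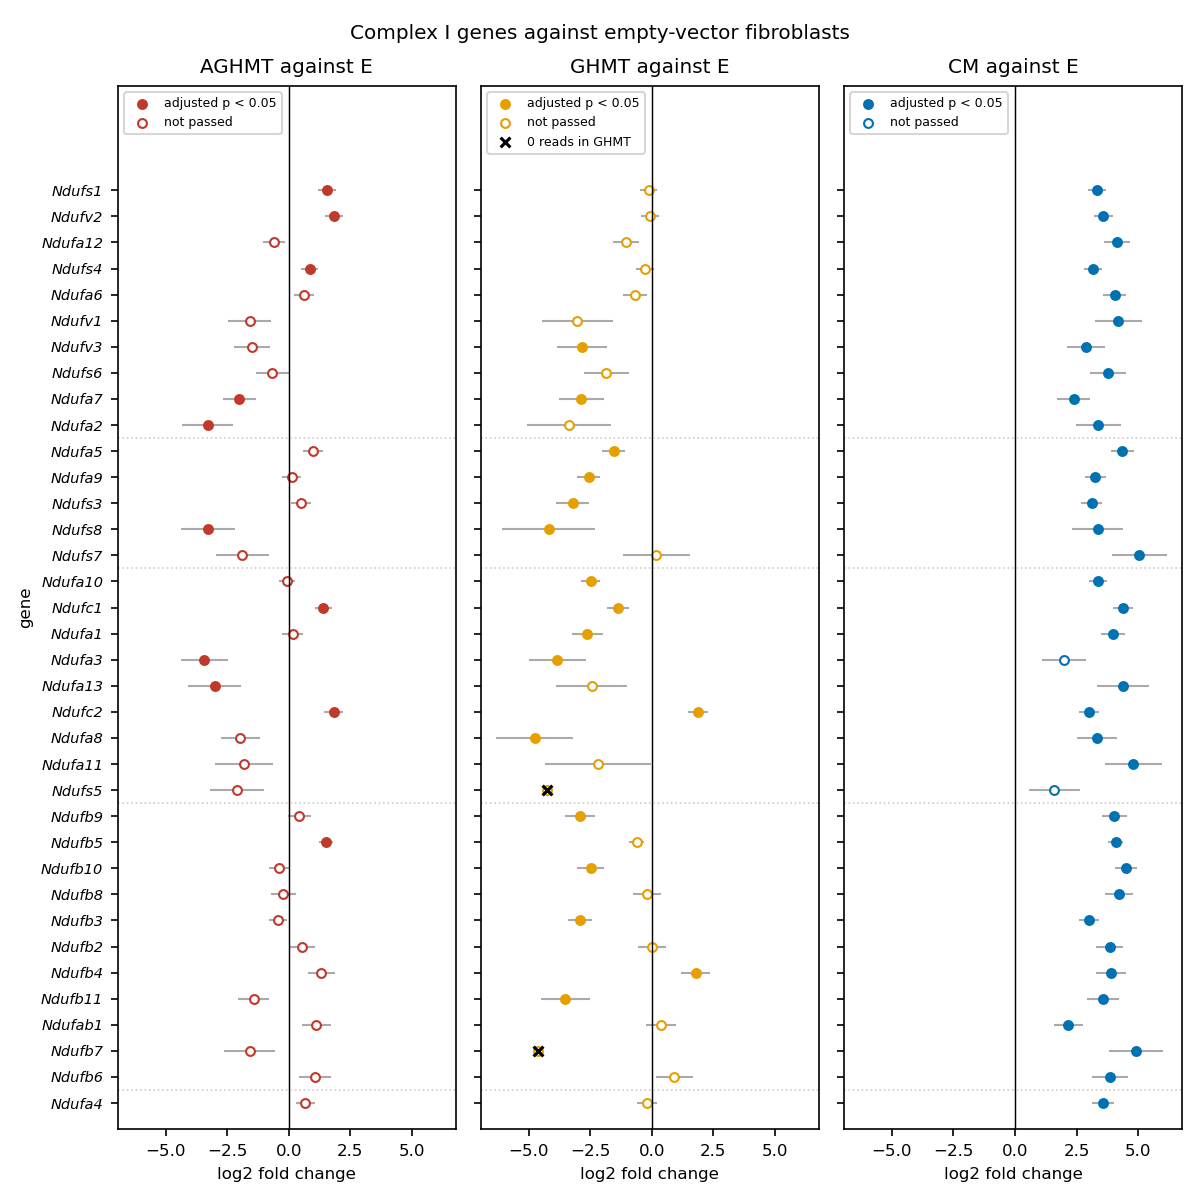
Log2 fold change of each of the 36 genes (rows, modules divided by dotted lines) in AGHMT, GHMT and CM against E (columns), with bars of 1 standard error, filled where the adjusted p is under 0.05 and crossed where GHMT had 0 reads. The CM points all lie right of 0 and 34 are filled, the GHMT points lie mostly left of it, and the AGHMT points spread to both sides.

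Both reprogrammed groups held fewer complex I transcripts than adult cardiomyocytes. In AGHMT, 35 of 36 genes were lower than in CM and 0 were higher, where 24.4% of all genes were lower and 23.7% higher. Their median log2 fold change was -3.65, against -0.05 for all genes. In all 36 every AGHMT library lay below every CM library, as did 33.9% of all genes (36.7% lay above, and 0 of the 36). Ndufab1, which encodes the mitochondrial acyl carrier protein, was the only one not to pass, with 42.8, 43.1 and 43.2 CPM in AGHMT against 86.4, 124 and 56.7 CPM in CM (log2 fold change -1.05, standard error 0.59, adjusted p = 0.152). In GHMT all 36 were lower than in CM (34.7% of all genes lower and 23.8% higher). The median log2 fold change was -5.80, or -5.75 with the 2 genes without GHMT reads set to their bounds, against -0.82 for all genes. It was -4.85 without CM 3 (-0.71 for all genes) and -4.25 after correction for transcript length (-0.77). In 35 of the 36 every GHMT library lay below every CM library, as did 40.2% of all genes, and the exception was Ndufc2. AGHMT and GHMT were set against the same CM libraries, so these results are not independent.

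Ndufs1 was at 286, 277 and 261 CPM in AGHMT and 64.2, 80.8 and 109 CPM in GHMT, below all 3 CM libraries. Its log2 fold change against CM was -1.78 (standard error 0.35, adjusted p = 0.00122) in AGHMT and -3.47 (standard error 0.38, adjusted p = 4.91e-06) in GHMT. Ndufv2 was at 148, 173 and 178 CPM in AGHMT and 19.7, 39.1 and 72.2 CPM in GHMT, with log2 fold changes against CM of -1.75 (standard error 0.36, adjusted p = 0.00152) and -3.65 (standard error 0.40, adjusted p = 4.31e-06). These 2 N module genes were among the members closest to CM in AGHMT. Ndufa4 was at 74.1, 101 and 130 CPM in AGHMT and 55.1, 23.4 and 88.0 CPM in GHMT, lower than CM by log2 fold changes of -2.90 (adjusted p = 0.000135) and -3.78 (adjusted p = 1.08e-05).

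The largest deficits of AGHMT against CM again involved genes that were high in CM 3. Ndufa13, also known as GRIM-19 and needed for assembly of the proximal arm, had 1.23, 0.661 and 0.545 CPM in AGHMT against 13.7, 26.3 and 419 CPM in CM (log2 fold change -7.39, standard error 1.25, adjusted p = 0.000324). Without CM 3 its fold was -4.47. Ndufs7 had 0.231, 0.495 and 0.491 CPM in AGHMT (-6.94 against CM, standard error 1.26, adjusted p = 0.000464; -5.16 without CM 3). Ndufa2, an N module subunit with a thioredoxin-like fold, had 0.231, 0.220 and 0.382 CPM in AGHMT against 14.6, 8.25 and 99.1 CPM in CM (-6.68, standard error 1.15, adjusted p = 0.000268; -4.89 without CM 3). Ndufs8 (-6.63, standard error 1.25, adjusted p = 0.000634) and Ndufv1 (-5.79, standard error 1.04, adjusted p = 0.000546) stood at -4.18 and -3.77 without CM 3. Ndufs3 was at 9.30, 12.2 and 11.0 CPM in AGHMT, a log2 fold change against CM of -2.61 (standard error 0.43, adjusted p = 0.000288). All of these lay below every CM library and kept their calls with each library left out.

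In GHMT several members had too few reads for a fitted fold to carry meaning, and pooled ratios with exact 95% count intervals are given for them. Ndufb7 had 0 reads in GHMT and 1651 in CM, so its level was at least 77.9-fold lower in GHMT over a floor of 3 pooled reads. Of the CM reads 1382 came from CM 3, and without it the level was at least 15.9-fold lower. Ndufa8, a cysteine-rich subunit of the proximal arm, had 1 read in GHMT and 2034 in CM, a pooled CM level 288 times that of GHMT (51.6 to 11382). Ndufs8 had 1 read in GHMT and 1287 in CM (182 times, 32.7 to 7204), Ndufv1 had 3 against 2591 (122 times, 41.8 to 593) and Ndufs3 had 3 against 1902 (89.8 times, 30.7 to 436). All 5 passed the test as lower in GHMT (largest adjusted p = 0.0012). Without CM 3 the pooled ratios were 120 for Ndufa8 (21.5 to 4764), 49.0 for Ndufs8 (8.72 to 1942) and 43.5 for Ndufv1 (14.8 to 211). Without GHMT 3 the ratio of Ndufs3 was 175 (31.3 to 6901), and without GHMT 2, where Ndufa8 and Ndufs8 had 0 reads left, their levels were at least 51.5-fold and 32.6-fold lower. Ndufs7 had 9.18, 0 and 0 CPM in GHMT, from 7, 0 and 0 reads, and a log2 fold change against CM of -4.87 (standard error 1.28, adjusted p = 0.0046). That fold was -9.22 without GHMT 1, -3.04 without CM 3, -4.05 without GHMT 2, -4.26 without GHMT 3 and -5.47 without AGHMT 3, and it did not pass after a correction for GC content (-2.36, adjusted p = 0.116) or for transcript length (-3.22, adjusted p = 0.0734).

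Against the fibroblasts, the 36 genes split in AGHMT. There 6 genes were higher and 5 lower than in E, near or under the shares of all genes (21.9% higher and 24.6% lower). The median log2 fold change was -0.15, against -0.16 for all genes, and -0.25 to 0.11 with 1 library left out. Every AGHMT library lay above every E library for 12 genes and below for 9, where 34.8% and 36.9% of all genes did so. The higher genes were Ndufs1, Ndufv2 and Ndufs4 of the N module, Ndufc1 and Ndufc2 of the proximal arm and Ndufb5 of the distal arm. The lower genes were Ndufa2 and Ndufa7 of the N module, Ndufs8 of the Q module, and Ndufa3 and Ndufa13 of the proximal arm. Beside them, 5 of 6 endothelial markers, 2 of 6 macrophage, 3 of 5 mural, 9 of 9 cardiomyocyte and 2 of 10 fibroblast markers and both tested mast cell markers were higher in AGHMT than in E, and 5 fibroblast markers and 1 mural marker were lower.

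Among the higher genes, Ndufv2 had 148, 173 and 178 CPM in AGHMT against 35.7, 55.5 and 49.0 CPM in E, which gave a log2 fold change of 1.83 (standard error 0.36, adjusted p = 0.00123). Ndufc2 had 29.0, 48.8 and 56.9 CPM in AGHMT against 13.5, 13.6 and 10.7 CPM in E (1.83, standard error 0.39, adjusted p = 0.00198). Ndufs1 had 286, 277 and 261 CPM in AGHMT against 71.7, 72.4 and 136 CPM in E (1.56, standard error 0.35, adjusted p = 0.00302). In all 3 genes the groups did not overlap. Ndufb5 (1.5, adjusted p = 0.000838) and Ndufc1 (1.41, adjusted p = 0.0058) passed as well, and Ndufs4, an accessory subunit whose loss in mice causes a fatal brain disease, passed narrowly (0.86, adjusted p = 0.0498, 0.006 to 0.958 over the alternatives). Scaled by total counts, 0 of the 36 genes were higher in AGHMT than in E, and fewer of all genes were higher too, as counted below. The median log2 fold change of the 36 genes was then -0.97, against -0.95 for all genes, and Ndufs1 stood at 0.73 (adjusted p = 0.175). Ndufa4 did not pass (0.68, standard error 0.40, adjusted p = 0.174), and its AGHMT and E libraries overlapped.

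Among the lower genes, Ndufa3 had 3.92, 5.18 and 2.89 CPM in AGHMT against 83.5, 45.7 and 4.01 CPM in E, and the groups overlapped at E 3. Its log2 fold change was -3.44 (standard error 0.95, adjusted p = 0.00934), and it did not pass without E 1 (-2.51, adjusted p = 0.064) or AGHMT 3 (-3.03, 0.0618). Ndufa2 had 0.231, 0.220 and 0.382 CPM in AGHMT against 6.92, 3.35 and 0.948 CPM in E (-3.29, standard error 1.04, adjusted p = 0.00971; -2.37 and 0.0595 without E 1). Ndufs8 had 0.538, 0.826 and 0.273 CPM in AGHMT against 13.6, 3.79 and 1.35 CPM in E (-3.27, standard error 1.10, adjusted p = 0.018). Its call ended without E 1 (-1.92, 0.146), AGHMT 1 (-3.26, 0.064) or AGHMT 3 (-2.78, 0.098). Without E 1, 0 of the 36 genes were lower in AGHMT than in E and 6 were higher, where 12.5% and 15.9% of all genes were. The lower calls numbered 2 without AGHMT 1 (12.7% of all genes), 3 without AGHMT 2 (17.3%) and 1 without AGHMT 3 (10.7%). They numbered 9 without E 3 (25.8% of all genes) and 10 without CM 3 (27.6%). With limma on the deposited normalized values 0 were lower.

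In GHMT 15 of the 36 genes were lower than in E and 2 higher, where 32.9% of all genes were lower and 19.8% higher. The median log2 fold change was -2.32, or -2.03 with the 2 genes without reads at their bounds, against -0.87 for all genes. It was -0.90 after correction for GC content (-0.41 for all genes) and -0.95 after correction for transcript length (-0.60), where 22 genes had negative and 14 positive fold changes. Every GHMT library lay below every E library for 20 genes and above for 1, where 43.9% and 15.5% of all genes did so. Lower genes were 2 of 10 in the N module (Ndufv3 and Ndufa7), 4 of 5 in the Q module (Ndufs3, Ndufs8, Ndufa5 and Ndufa9), 5 of 9 in the proximal arm and 4 of 11 in the distal arm. AGHMT and GHMT share the E libraries in these comparisons.

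Ndufc2 was higher in GHMT, at 41.9, 36.5 and 59.8 CPM against 13.5, 13.6 and 10.7 CPM in E (log2 fold change 1.86, standard error 0.40, adjusted p = 0.00159), without overlap. Ndufb4, a distal arm subunit, had 2.62, 44.8 and 31.6 CPM in GHMT against 6.72, 9.50 and 7.70 CPM in E, and the groups overlapped through GHMT 1. Its log2 fold change was 1.77 (standard error 0.58, adjusted p = 0.0182), and it did not pass without GHMT 2 (1.20, adjusted p = 0.129), E 1 (1.13, 0.193) or AGHMT 3 (1.29, 0.0962). Ndufs3 had 3 reads in GHMT and 928 in E, a pooled E level 10.5 times that of GHMT (3.58 to 50.9, adjusted p = 0.000826 in edgeR's quasi-likelihood test). Ndufa8 had 1 read in GHMT and 1402 in E (47.5 times, 8.51 to 1878, adjusted p = 0.0111), and did not pass without GHMT 2 (0.0519) or GHMT 3 (0.0551). Fitted log2 fold changes against E of these low-count genes moved with single libraries. Ndufs3 stood at -4.04 without GHMT 3, against -3.21 with it. Ndufa8 stood at -6.47 without GHMT 2 and -4.04 without E 1, against -4.76 with them. Without E 1 the pooled ratio of Ndufa8 was 20.3 (3.61 to 803). Ndufa3 had 0, 3.65 and 4.12 CPM in GHMT (log2 fold change against E -3.84, standard error 1.15, adjusted p = 0.0114), and GHMT 3 lay above E 3. Ndufs8 had 1 read in GHMT and 972 in E (32.9 times, 5.90 to 1302, adjusted p = 0.0475), and the call ended without any 1 of the GHMT libraries (adjusted p = 0.121 to 0.157), E 1 (-3.12, 0.106), AGHMT 1 (0.0557) or AGHMT 2 (0.0517). Its fitted log2 fold change was -4.18, and -5.88 without GHMT 2, and its pooled ratio without E 1 was 10.4 (1.83 to 412). The N module core genes Ndufs1 (-0.13, standard error 0.35, adjusted p = 0.766) and Ndufv2 (-0.07, standard error 0.36, adjusted p = 0.88) did not pass, with 95% intervals of -0.82 to 0.55 and -0.78 to 0.64 on the log2 scale. After a correction for GC content 8 genes were lower and 3 higher in GHMT than in E, where 22.7% of all genes were lower and 21.4% higher. After one for transcript length 5 were lower and 4 higher, where 25.7% of all genes were lower and 22.9% higher.

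The comparison of AGHMT with GHMT addresses what Akt adds to the 4 factors, as far as the labels hold. In AGHMT 13 of 36 genes were higher than in GHMT and 0 lower, where 13.2% of all genes were higher and 4.58% lower. These shares moved with single libraries, from 5.52% higher without AGHMT 2 to 25.1% without E 1 and from 0.581% lower without AGHMT 3 to 6.66% without GHMT 3, while 11 to 16 of the 36 genes were higher. Without AGHMT 1 the shares were 7.10% and 1.58%, and without AGHMT 2 and E 1 the lower share was 1.10% and 1.45%. The median log2 fold change was 1.32, or 1.15 with the genes without GHMT reads at their bounds, against 0.57 for all genes. Without AGHMT 3 it was 2.06 (1.09 for all genes) and without GHMT 3 it was 1.93 (0.83). After correction for GC content it was 0.78 (0.23 for all genes) and for transcript length 0.57 (0.19). With the length correction 9 genes were higher and 1 lower, where 8.47% and 9.42% of all genes were. In 19 genes every AGHMT library lay above every GHMT library and in 0 below, where 37.4% and 8.47% of all genes did so. The higher genes were Ndufv2, Ndufs1 and Ndufs4 of the N module, Ndufs3, Ndufa5 and Ndufa9 of the Q module, Ndufa1, Ndufa10 and Ndufc1 of the proximal arm, and Ndufb3, Ndufb5, Ndufb9 and Ndufb10 of the distal arm. Beside them, 5 of 6 endothelial, 3 of 6 macrophage, 3 of 5 mural, 3 of 10 fibroblast and 4 of 9 cardiomyocyte markers and both tested mast cell markers were higher in AGHMT than in GHMT, and 1 fibroblast marker was lower.

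Ndufs3 had 9.30, 12.2 and 11.0 CPM in AGHMT, from 543 reads, against 0, 0.521 and 1.37 CPM in GHMT, from 3 reads. The pooled AGHMT level was 15.1 times that of GHMT (exact 95% count interval 5.15 to 73.6), and the edgeR test gave adjusted p = 0.00195 (fitted log2 fold change 3.71, and 4.55 without GHMT 3). Ndufb9 had 30.4, 52.1 and 26.5 CPM in AGHMT against 0, 4.17 and 4.81 CPM in GHMT (log2 fold change 3.35, standard error 0.62, adjusted p = 0.00329; 4.14 without AGHMT 3). Ndufc1, a small subunit at the base of the membrane arm, had 24.4, 30.3 and 48.3 CPM in AGHMT against 5.24, 4.69 and 4.81 CPM in GHMT (2.79, standard error 0.44, adjusted p = 0.00145; 3.38 without E 1). In these genes the groups lay apart.

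The abundant N module genes rest on more reads. Ndufs1 had 286, 277 and 261 CPM in AGHMT against 64.2, 80.8 and 109 CPM in GHMT (log2 fold change 1.69, standard error 0.36, adjusted p = 0.00721; 2.37 without AGHMT 3 and 2.31 without E 1). Ndufv2 had 148, 173 and 178 CPM in AGHMT against 19.7, 39.1 and 72.2 CPM in GHMT (1.90, standard error 0.37, adjusted p = 0.00474; 2.5 without E 1). Ndufa4 did not pass (0.88, standard error 0.42, adjusted p = 0.152), but it passed without AGHMT 3 (1.34, 0.0489), GHMT 3 (1.45, 0.03) or E 1 (1.53, 0.014). Ndufc2 was at 29.0, 48.8 and 56.9 CPM in AGHMT against 41.9, 36.5 and 59.8 CPM in GHMT, with a log2 fold change of -0.04 and a 95% interval of -0.80 to 0.72. After correction for transcript length Ndufc2 was lower in AGHMT (-1.37, adjusted p = 0.0334). With all libraries thinned to the 612458 non-mitochondrial reads of the shallowest, 1 of the 36 genes was higher in AGHMT. Calls over all genes fell as well, as counted below. Of the genes still testable, 30 had positive and 3 negative fold changes, with a median log2 of 1.03, against 0.16 for all genes.

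**Figure D3:**
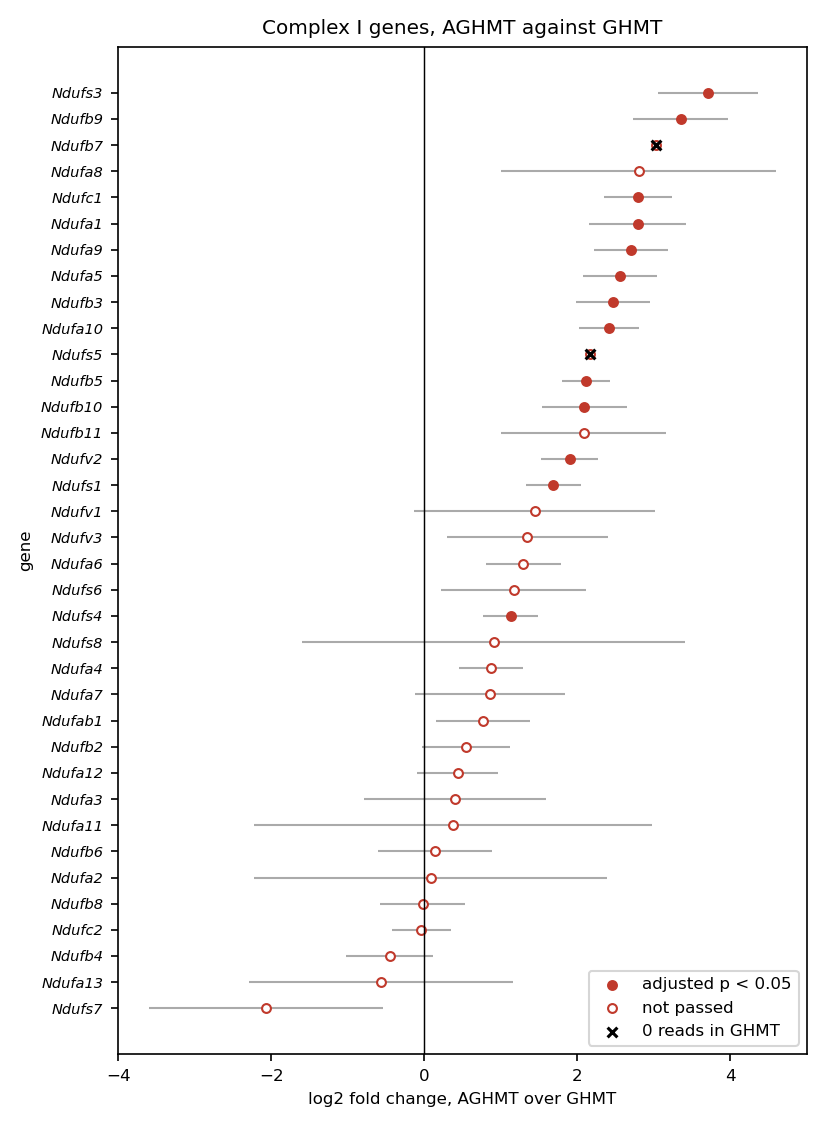
Log2 fold change of AGHMT over GHMT for the 36 genes, ordered by size, with bars of 1 standard error, filled where the adjusted p is under 0.05 and crossed where GHMT had 0 reads. The 13 filled points lie between 1.13 and 3.71, and wide bars mark genes with few GHMT reads.

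GC content moved with these results. The transcripts of the 36 genes had a median GC content of 51.9%, against 49.4% for all genes tested, and a median length of 891.5 bases against 2911.5. Across the 36 genes the Spearman correlation of fold change with GC content was -0.63 in AGHMT against E, -0.39 in GHMT against E, -0.74 in AGHMT against CM, -0.56 in GHMT against CM, -0.13 in AGHMT against GHMT and 0.38 in CM against E. Across 14960 genes it was -0.50, -0.47, -0.59, -0.49, 0.17 and 0.12 in the same comparisons. The 6 genes higher in AGHMT than in E had GC contents of 42.0% to 48.8% and the 5 lower genes 51.3% to 60.4%. Of the 18 genes of lower GC content 6 were higher and 2 lower, and of the other 18 genes 0 were higher and 3 lower. Libraries within a group also differed with GC content. CM 3 stood at 0.490 to 24.4 times the mean of CM 1 and CM 2 (median 1.82), above 5 times in 10 genes, and this ratio had a Spearman correlation of 0.76 with GC content. E 1 stood at 0.539 to 5.69 times the mean of E 2 and E 3 (median 1.47), with a correlation of 0.55. The part of GC content in the results was not tested beyond the following counts. After a correction for GC content, 10 genes were higher and 2 lower (Ndufa2 and Ndufa3) in AGHMT than in E, where 21.3% and 21.8% of all genes were. In that fit 12 were higher in AGHMT than in GHMT (11.6% of all genes), and 35 were higher in CM than in E (27.2%). Without GHMT 1, CM 3 and E 1 together, 11 genes were higher and 6 lower in AGHMT than in E (23.8% and 25.2% of all genes). In that fit 34 were higher in CM than in E (21.4% of all genes).

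**Figure D4:**
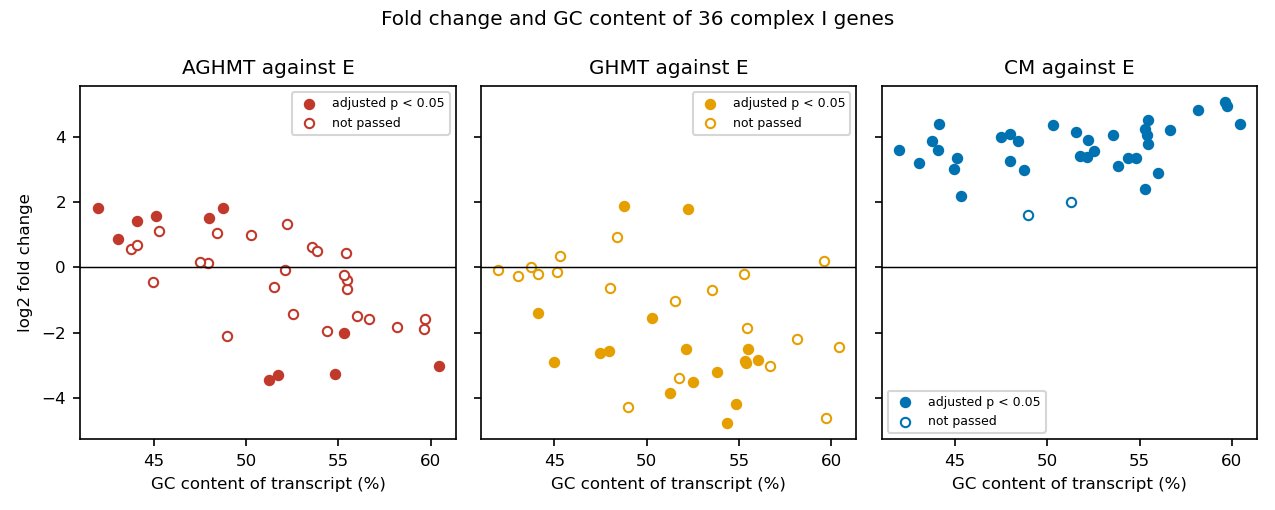
Log2 fold change of the 36 genes against E (vertical axis) and GC content of the transcript in percent (horizontal axis) for AGHMT, GHMT and CM, filled where the adjusted p is under 0.05. In AGHMT the 6 filled points above 0 lie at 42.0% to 48.8% GC and the 5 below 0 at 51.3% to 60.4%, while the CM points stay above 0 at every GC content.

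Complex I also needs assembly factors, which are not part of the finished enzyme, and of 18 listed 17 were tested. In AGHMT 2 were higher than in GHMT and 0 lower, near the 13.2% of all genes that were higher and the 4.58% that were lower. Ndufaf1, of the complex that builds the membrane arm, had 52.0, 41.7 and 43.5 CPM in AGHMT against 2.62, 5.21 and 26.8 CPM in GHMT (log2 fold change 1.92, adjusted p = 0.0387, 0.00166 to 0.636 over the alternatives). It was 3.42 without GHMT 3, 2.60 without AGHMT 3 and 2.52 without E 1, and the call ended without AGHMT 1, AGHMT 2, GHMT 1, GHMT 2, CM 1, CM 2 or E 2 (adjusted p = 0.0507 to 0.118). Ndufaf5, which modifies Ndufs7 during assembly, had 12, 9.47 and 7.80 CPM in AGHMT against 0, 0.521 and 0 CPM in GHMT, from 1 read, and passed (adjusted p = 0.00184, 0.000114 to 0.766 over the alternatives). Against E, 3 were higher in AGHMT (Ndufaf1, Ndufaf4 and Tmem126b) and 0 lower, where 21.9% and 24.6% of all genes were. In GHMT 2 were higher than in E (Ndufaf4 and Tmem126b) and 4 lower, where 19.8% and 32.9% of all genes were. Ndufaf4 stood at 71.2 ± 8.24 CPM in AGHMT, 58.3 ± 40.8 in GHMT, 79.7 ± 32.5 in CM and 13.5 ± 4.68 in E, and passed against E in each of the 3 groups (log2 fold changes 2.39, 2.07 and 2.56, adjusted p at most 0.0527, 0.357 and 0.0169 over the alternatives). In GHMT its log2 fold change was 1.37 without GHMT 1 and 1.19 without E 1 (adjusted p = 0.0652), 1.41 without AGHMT 3 and 0.46 after correction for GC content (0.295). Against CM, 8 of 17 assembly factors were lower in AGHMT (24.4% of all genes) and 12 in GHMT (34.7%), and 10 were higher in CM than in E (19.5%). Their median log2 fold change in CM against E was 1.89, below the 3.69 of the subunit genes, a difference that was not tested.

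The mitochondrially encoded subunits of complex I form the proton-pumping core of the membrane arm, and 5 of 7 were tested. All 5 were higher than in E in AGHMT, GHMT and CM, with median log2 fold changes of 3.60, 5.10 and 4.36. Of all genes 21.9%, 19.8% and 19.5% were higher, with medians of -0.16, -0.87 and -0.25. Mt-Nd1 stood at 71265, 49882 and 61884 CPM in AGHMT, 70006, 38422 and 58377 in GHMT, 109070, 135574 and 58548 in CM and 3283, 6779 and 6705 in E. The log2 fold change of mt-Nd1 against E was 3.45 in AGHMT (adjusted p = 1.8e-05), 3.31 in GHMT (2.2e-05; 2.38 without E 1 and 2.68 without AGHMT 3) and 4.18 in CM (2e-06). In AGHMT 2 were lower than in GHMT, mt-Nd5 (-1.82, adjusted p = 0.0256, at most 0.227 over the alternatives) and mt-Nd6 (-4.44, adjusted p = 0.0054). Of all genes 4.58% were lower in that comparison. Mt-Nd6 stood at 28156, 15423 and 23484 CPM in AGHMT against 1243170, 37020 and 180171 CPM in GHMT, on the TMM scale, where a value can pass the library total. Its log2 fold change was -2.27 without GHMT 1 (adjusted p = 0.0206), -3.62 without AGHMT 3 or E 1. The call of mt-Nd5 ended without GHMT 1 (-0.89, 0.185), E 1 (-1.07, 0.0814) or any 1 of the AGHMT libraries (0.0655 to 0.227). Whether the counting used strand is not given in the sources used here, and without it mt-Nd6 reads and those of the opposite strand cannot be told apart. Without mt-Nd6, the ratio of summed mitochondrial to summed nuclear complex I CPM was 215, 126 and 162 in AGHMT, 1992, 466 and 460 in GHMT, 39, 51.5 and 18.3 in CM and 11.3, 27.4 and 32.1 in E. It was highest in the 3 GHMT libraries, followed by the 3 AGHMT libraries, and CM and E overlapped.

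**Figure D5:**
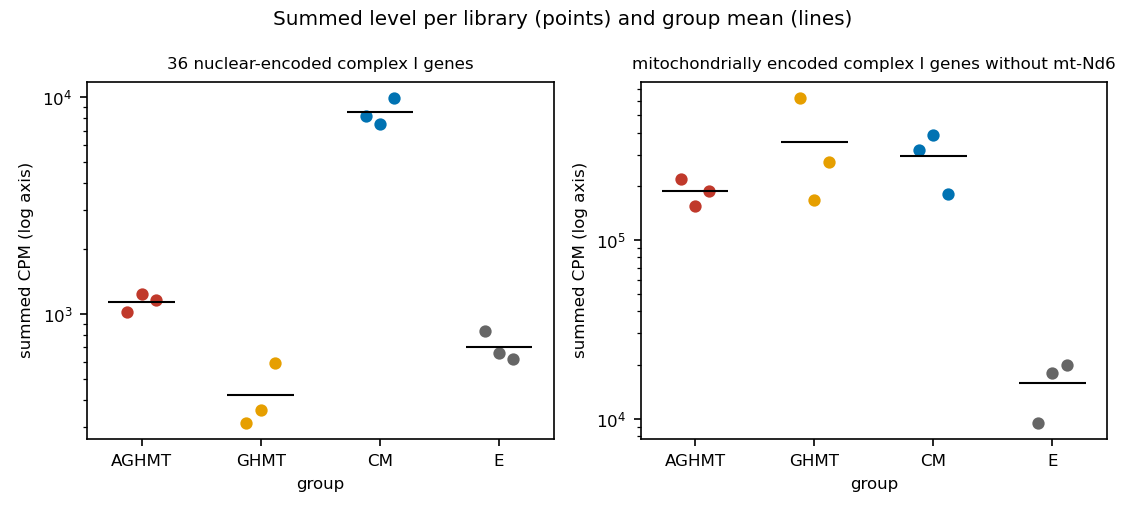
Summed CPM of the 36 nuclear genes (left) and of the mitochondrially encoded complex I genes without mt-Nd6 (right) on log axes, with a point per library and a line at the group mean. On the left CM lies highest at 7514 to 9920 CPM and GHMT lowest at 315 to 594 CPM, and on the right only E lies apart, below the other 3 groups.

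Nuclear genes of complexes II to V were counted in the same way. Of 40 tested, 17 were higher in AGHMT than in GHMT and 0 lower (13.2% and 4.58% of all genes). Lower than in CM were 38 in AGHMT (24.4% of all genes) and 39 in GHMT (34.7%). Against E, 10 were higher and 7 lower in AGHMT (21.9% and 24.6% of all genes), and 3 higher and 19 lower in GHMT (19.8% and 32.9%). In CM 36 were higher and 0 lower than in E (19.5% and 22.5%). Their median log2 fold changes were 1.60, -3.23, -5.48, 0.20, -1.82 and 3.63 in the same order, against 1.32, -3.65, -5.80, -0.15, -2.32 and 3.69 for the complex I genes, and these medians were not tested against each other. Of 12 listed regulators of mitochondrial biogenesis, 6 were higher in AGHMT than in E and 0 lower (21.9% and 24.6% of all genes), 5 were higher and 1 lower in AGHMT than in GHMT (13.2% and 4.58%), and 3 were higher and 6 lower in AGHMT than in CM (23.7% and 24.4%). In GHMT 3 were higher and 0 lower than in E (19.8% and 32.9%), and 3 higher and 8 lower than in CM (23.8% and 34.7%), and in CM 7 were higher and 0 lower than in E (19.5% and 22.5%). Ppargc1a, the coactivator PGC-1 alpha, stood at 80.3 ± 12.7 CPM in AGHMT, 25.5 ± 8.03 in GHMT, 159 ± 53.8 in CM and 0.204 ± 0.0707 in E (SD, n = 3 each). It was higher in AGHMT than in GHMT (log2 fold change 1.63, adjusted p = 0.00991, 3.18e-06 to 0.787 over the alternatives; 2.30 without AGHMT 3 and 2.24 without E 1) and than in E (7.99, 1.6e-08, at most 0.00393 over the alternatives). Perm1, a muscle coactivator that acts with it, stood at 23.7 ± 3.21 CPM in AGHMT, 1.07 ± 0.475 in GHMT, 214 ± 8.10 in CM and 1.19 ± 0.362 in E (4.44 in AGHMT over GHMT, adjusted p = 0.000137, 1.3e-08 to 0.102 over the alternatives). Gabpa, whose motif stands in the Ndufs3 promoter shown above, was lower in AGHMT than in GHMT (-1.15, adjusted p = 0.0292, 5.95e-05 to 0.528 over the alternatives), and the call ended without AGHMT 3 (-0.41), E 1 (-0.50), AGHMT 1, AGHMT 2, GHMT 1, GHMT 2, CM 1 or E 2 (adjusted p = 0.0503 to 0.528).

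For 6 of the 36 genes (Ndufs6, Ndufa7, Ndufs3, Ndufa11, Ndufb7 and Ndufb11) the annotation holds 1 pseudogene whose transcript matches at least 50% of the gene's length at 90% identity or more, up to 98.6% for Ndufs3. Reads that matched several places were not counted, so levels of these 6 genes are uncertain and may be understated in every group.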

How the data were processed

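Counts of reads per Ensembl gene were deposited for each library, and a further deposited table holds a normalized signal of the authors, in which each count had been divided by the size factor of its library. Per the submitters' processing notes, mm10, Bowtie2 2.0.6, HTSeq and DESeq were used; annotation version and strand setting are, for the sources used here, not given. Dividing each signal column by its smallest step gave whole numbers for 100% of values (tolerance 0.001), with the totals of the count files, and edgeR on them called 1990 genes higher and 688 lower in AGHMT against GHMT.

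Of 43629 identifiers 42548 matched the GENCODE M21 annotation (GRCm38, which is mm10), which gave names, positions, and length and GC content of the principal transcript. Summary lines that name no gene (reads in no gene were 8.45% to 20.2% of uniquely aligned reads) were left out. Replicate pairs differed beyond counting error (chi-square per degree of freedom at least 15.0). The filter was filterByExpr in edgeR 4.0.16, with a minimum count of 10 and a minimum total of 15. Counts were scaled by TMM, a trimmed mean of log ratios, and fitted in 1 robust quasi-likelihood model of all 12 libraries, tested on simulated data. In the simulation far fewer genes were given a change than passed in the data, so its shares may understate those in the data. There 0% to 2% of genes given a log2 fold change of 1 passed, depending on the comparison. At 2 the share was 14% to 40%, at 3 it was 50% to 70% and at 4 it was 64% to 90%. A gene that did not pass may therefore still have changed. CPM are on the TMM scale, and log2 fold changes use a prior count of 2. Ratios of genes with 3 or fewer GHMT reads have exact 95% conditional binomial intervals. Similar transcripts were sought with BLAST 2.17.0+.

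The members and lists were chosen with earlier results of these data known. Values per library are given for up to 3 called members per direction with the largest fold in each comparison, the member with the highest level per length, core subunits and Ndufa4; from other lists, some of the called genes with the largest folds. Genes named where 5 or fewer passed, and Ndufc2 and Ndufab1 where they did not pass, were chosen after their values were seen. Alternatives were total counts, size factors from DESeq2, TMM without mitochondrial genes, DESeq2 1.42.0, no filter on low counts, a filter of over 1 CPM in at least 3 libraries, limma 3.58.1 on log2 of the deposited signal plus 1, a fit of only the 2 groups in question, a replicate block, corrections for GC content and length, thinning, a prior count of 0.5 and each library left out. Chosen after seeing the data were 3 more, the recovered reads, pooled ratios with 1 library left out, and leaving out GHMT 1, CM 3 and E 1 together.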

Additional observations from a re-analysis of the deposited data

How the results depend on the processing

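Of 47 member values followed over 27 alternatives, 1179 of the recomputed values kept direction and side of the threshold, 65 lost the call, 6 gained it and 7 turned sign. Thinning to 612458 reads outside mitochondrial genes, which removes most reads and left 33 of the 36 genes testable, left 1 gene higher in AGHMT than in GHMT, 21 lower in AGHMT than in CM, 2 higher and 0 lower in AGHMT than in E, 0 higher and 4 lower for GHMT against E, and 20 higher in CM than in E. With total counts, which moved the median of all genes by -1.18 in GHMT against E, -0.79 in AGHMT against E and -0.93 in CM against E, 0 genes were higher and 8 lower in AGHMT than in E, and 0 and 29 in GHMT. The GC correction gave 10 higher and 2 lower in AGHMT against E (21.3% and 21.8% of all genes) and 8 lower in GHMT against E (22.7%). The length correction gave 9 higher and 1 lower in AGHMT against GHMT (8.47% and 9.42% of all genes). In GHMT against E it gave 4 higher and 5 lower (22.9% and 25.7%). For AGHMT against E, no filter gave 13 lower, limma 0 lower, only the 2 groups 11 higher and 10 lower, and leaving out GHMT 1, CM 3 and E 1 gave 11 higher. For GHMT against E, limma and only the 2 groups gave 1 higher each. Calls over all genes also fell after thinning, and moved in several other fits, to the counts given below. The cause was not tested for any of these changes. With 1 library left out, counts ranged from 11 to 16 higher in AGHMT against GHMT, 33 to 36 lower in AGHMT and in GHMT against CM, 4 to 8 higher and 0 to 10 lower in AGHMT against E, 1 to 2 higher and 10 to 20 lower in GHMT against E, and 28 to 35 higher in CM against E.

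Sign changed for Ndufa4 in AGHMT against GHMT with the length correction (-0.50), in AGHMT against E with total counts (-0.14), and in GHMT against E with the length correction (1.51, adjusted p = 0.0114), thinning (0.0515), and without the 3 libraries (0.0782; leaving out 1 library gave -0.77 to 0.19, the highest without GHMT 2), and for Ndufa2 in AGHMT against E with thinning (0.0542). Replicate numbers did not pair the libraries (correlations of deviations -0.719 to 0.13), and with the replicate block 12 genes were higher in AGHMT than in GHMT, 35 and 36 lower than in CM in AGHMT and GHMT, 5 higher and 5 lower in AGHMT than in E, 2 higher and 15 lower for GHMT against E, and 33 higher in CM than in E. Over all genes, counts moved beyond 1.5 times in several fits. In AGHMT against GHMT 1993 higher and 689 lower genes became 37 and 23 after thinning, 1049 and 306 with the block, 3191 and 339 with TMM without mitochondrial genes, 3944 higher with limma, 1074 higher with only the 2 groups, 1275 higher and 1419 lower with the length correction, and 142, 1594 and 1634 lower with total counts, DESeq2 and the GC correction. In AGHMT against CM, 3576 higher and 3668 lower became 372 and 310 after thinning, 2216 and 5507 with DESeq2's size factors, 1998 higher with limma and 6279 lower with DESeq2. In GHMT against CM, 3588 and 5233 became 888 and 941 after thinning, 1889 and 3091 with only the 2 groups and 2329 higher with limma. In AGHMT against E, 3292 and 3706 became 408 and 133 after thinning, and 1622 and 2179 were higher with total counts and limma. In GHMT against E, 2979 and 4948 became 788 and 361 after thinning and 1110 and 8111 with total counts. In CM against E, 2933 and 3386 became 675 and 373 after thinning, 1767 and 6009 with total counts and 2198 lower with limma. With 1 library left out, counts over all genes moved beyond 1.5 times to 865 to 3851 higher and 91 to 1060 lower in AGHMT against GHMT, to 2152 lower in AGHMT against CM (without AGHMT 3; 2389 without AGHMT 1), to 1670, 2009 and 1915 lower in AGHMT against E (without AGHMT 3, AGHMT 1 and E 1) and to 1951 and 1658 higher in GHMT against E (without AGHMT 3 and E 1). The 1796 reads of the 36 genes in GHMT limit every comparison with that group.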
